A study of Mus musculus with 41 samples.

Results

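Mast cell transcripts were followed through mouse endometriosis lesions with 9 genes chosen by name: the granule proteases Cpa3, Cma1, Mcpt4, Tpsb2 and Tpsab1, the growth factor receptor gene Kit, the IgE receptor genes Fcer1a and Ms4a2, and Hdc, which makes histamine. All 9 were found among the 21249 genes of the count table. Gene expression had been measured by bulk RNA sequencing of whole lesions in 41 libraries of 11 groups. Each lesion grew from a 4 mm uterine punch glued to the peritoneal wall of a mouse aged 12 to 16 weeks, and 3 injections of 1 µg IL-33 or of PBS were given from day 7. The comparisons ask how the lesion changes when type 2 innate lymphocytes (ILC2s), which IL-33 activates to make cytokines, are missing or are given back.

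ILC2-deficient lesions had the genotype Nmur1iCre-eGFP Id2fl/fl, in which Cre expressed from Nmur1 deletes the floxed Id2 gene in the cells that express Nmur1. They came as IL-33 with 250000 transferred ILC2s (4 libraries), IL-33 with 120000 ILC2s (2 libraries), IL-33 with added PBS (4), IL-33 alone (4) and PBS alone (4). The exchanged lesions were Nmur1iCre-eGFP fragments in deficient recipients (4) and deficient fragments in Nmur1iCre-eGFP recipients (4), all given IL-33. ILC2-competent mice given IL-33 were C57Bl/6J with 120000 ILC2s (3) and, without transfer, Nmur1iCre-eGFP Cre controls (4), Id2fl/fl floxed controls (4) and C57Bl/6J wild type (4). Nmur1iCre-eGFP is thus carried by the deficient mice and by the Cre controls alike. Where fragments were not exchanged, recipient and fragment are assumed to share a genotype.

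Mast cells are tissue-resident cells that store proteases and histamine in granules and release them when antigen cross-links IgE on their high-affinity receptor. Their survival depends on stem cell factor acting on Kit, and they carry the receptor for IL-33. Connective tissue mast cells of the mouse express Cpa3 (carboxypeptidase A3), the chymase genes Cma1 and Mcpt4 and the tryptase genes Tpsb2 and Tpsab1. Only transcripts were measured here, so the amount of working protease made from each gene is not known. Mast cells are a known component of endometriosis lesions.

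Positions are given in GRCm38 with GENCODE M21. Cpa3 (carboxypeptidase A3) spans positions 20215620 to 20242181 of chromosome 3. Cma1 (55941451 to 55944675) and Mcpt4 (56059629 to 56062313) lie 118 kb apart on chromosome 14. The tryptase genes Tpsb2 (25366305 to 25369098) and Tpsab1 (25343245 to 25345562) lie 23.1 kb apart on chromosome 17. Kit spans 75574916 to 75656722 of chromosome 5, Fcer1a 173221284 to 173227214 of chromosome 1, Ms4a2 11615523 to 11623719 of chromosome 19 and Hdc 126593667 to 126619299 of chromosome 2. No stretch of 50 bases was shared between the transcripts of Tpsb2 and Tpsab1, nor between those of Cma1 and Mcpt4.

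The 250 bases before the start of 5 of these genes are shown because their transcripts moved together from library to library. They were searched for the letters that GATA factors, regulators of the mast cell lineage, are known to read. Sequences are from RefSeq on GRCm38.p6, written 5′ to 3′ towards the gene, at chr3:20242182-20242431, chr14:55944676-55944925, chr14:56062311-56062560, chr1:173227230-173227479 and chr19:11623720-11623969, all on the minus strand. Capitals mark the letters AGATAA and, as a variant, AGATAG, as well as those beginning with T, which are TGATAA and, as a variant, TGATAG, on either strand.
Cpa3: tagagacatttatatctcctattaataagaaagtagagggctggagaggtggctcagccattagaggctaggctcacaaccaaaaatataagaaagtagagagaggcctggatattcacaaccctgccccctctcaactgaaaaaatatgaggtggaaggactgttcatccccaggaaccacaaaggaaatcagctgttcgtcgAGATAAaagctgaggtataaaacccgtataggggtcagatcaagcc
Cma1: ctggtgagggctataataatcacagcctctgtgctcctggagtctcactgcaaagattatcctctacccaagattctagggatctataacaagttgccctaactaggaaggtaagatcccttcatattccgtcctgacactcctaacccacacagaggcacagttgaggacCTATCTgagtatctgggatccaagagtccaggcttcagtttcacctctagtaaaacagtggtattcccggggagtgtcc
Mcpt4: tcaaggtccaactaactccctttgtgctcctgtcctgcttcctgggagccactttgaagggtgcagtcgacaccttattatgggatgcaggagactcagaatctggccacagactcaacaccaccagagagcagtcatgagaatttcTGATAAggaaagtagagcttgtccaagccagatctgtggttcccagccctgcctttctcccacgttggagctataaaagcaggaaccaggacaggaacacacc
Fcer1a: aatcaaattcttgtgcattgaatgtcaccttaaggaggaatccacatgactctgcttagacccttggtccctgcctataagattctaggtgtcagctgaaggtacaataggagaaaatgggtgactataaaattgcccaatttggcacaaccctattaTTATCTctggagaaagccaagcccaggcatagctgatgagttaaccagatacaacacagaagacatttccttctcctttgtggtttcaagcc
Ms4a2: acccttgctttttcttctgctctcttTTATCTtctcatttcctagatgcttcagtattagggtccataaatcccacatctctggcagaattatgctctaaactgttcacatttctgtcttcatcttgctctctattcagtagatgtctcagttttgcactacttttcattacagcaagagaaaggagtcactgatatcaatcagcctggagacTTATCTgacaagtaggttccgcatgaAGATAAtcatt
A match was found in 6 of the 7 members with a window, once each in Cpa3, Cma1, Mcpt4, Fcer1a and Hdc and 3 times in Ms4a2, and in none of the Kit window. Its first base lay 46 bases before the start in Cpa3, 79 in Cma1, 103 in Mcpt4 and 92 in Fcer1a. Of all 32851 windows of that length 26.5% held a match. The E-box letters CACGTG or CATGTG, which MITF is known to read, were found in the Fcer1a window alone among the 7, against 17.6% of all windows. These matches describe letters and do not show that a factor binds there.

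Library totals were 28884926 to 70526624 counts. At that depth Ms4a2 was read 4 to 35 times per library, Fcer1a 6 to 81 times and Tpsab1 at least 10 times, while Kit and Hdc had at least 392 and 246 counts, so the IgE receptor genes carry the largest counting error. In 4 libraries (wild type replicate 4, Cre control replicate 3, deficient replicate 2 under IL-33, and wild type with 120000 ILC2s replicate 3) a list of 14 liver genes took 2.93 to 11.4% of counts, against at most 0.0946% in the other 37. Id2, which is deleted only in the cells that express Nmur1, was 38.3 to 58.1 CPM (counts scaled to the normalised library size) in deficient lesions given IL-33 and 30.2 to 63.6 CPM in the 3 competent genotypes, so whole-lesion Id2 does not check the genotype. Of 7 measured genes of ILC2s and type 2 responses, Il5, Il13, Gata3 and Il1rl1 passed as lower in that comparison, Il13 at -4.57 ± 0.57 on the log2 scale (adjusted p = 1.14e-05). Skeletal muscle genes took 0.00427 to 5.31% and epithelial genes 0.00159 to 0.182%. Adipoq and Lep of 7 fat cell genes and Krt19 and Krt7 of 8 epithelial genes also passed as higher in deficient lesions under IL-33, and their part in the results was not tested. Since whole lesions were sequenced, fewer mast cells and less RNA per mast cell cannot be told apart.

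Levels are given as CPM on TMM-scaled library sizes. Per kilobase of exon, Cma1 stood highest, at 8.46 ± 3.93 CPM per kb (mean and SD over 41 libraries), followed by Tpsb2 at 5.22 ± 2.76, Mcpt4 at 4.76 ± 2.29 and Cpa3 at 4.21 ± 2.13. Tpsab1, at 0.56 ± 0.327 CPM per kb, was the weaker tryptase gene. Hdc stood at 3.97 ± 2.04 and Kit at 2.96 ± 1.14 CPM per kb. Fcer1a, the IgE-binding alpha chain, stood at 0.726 ± 0.471 CPM per kb, and Ms4a2, the signal-amplifying beta chain, was the weakest of the 9 at 0.145 ± 0.078. Between the lowest and the highest library the 9 genes spanned 5.36-fold (Kit) to 11.8-fold (Cpa3), and 56.2 to 78.8% of their variance over the 41 libraries lay within groups.

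**Figure D1:**
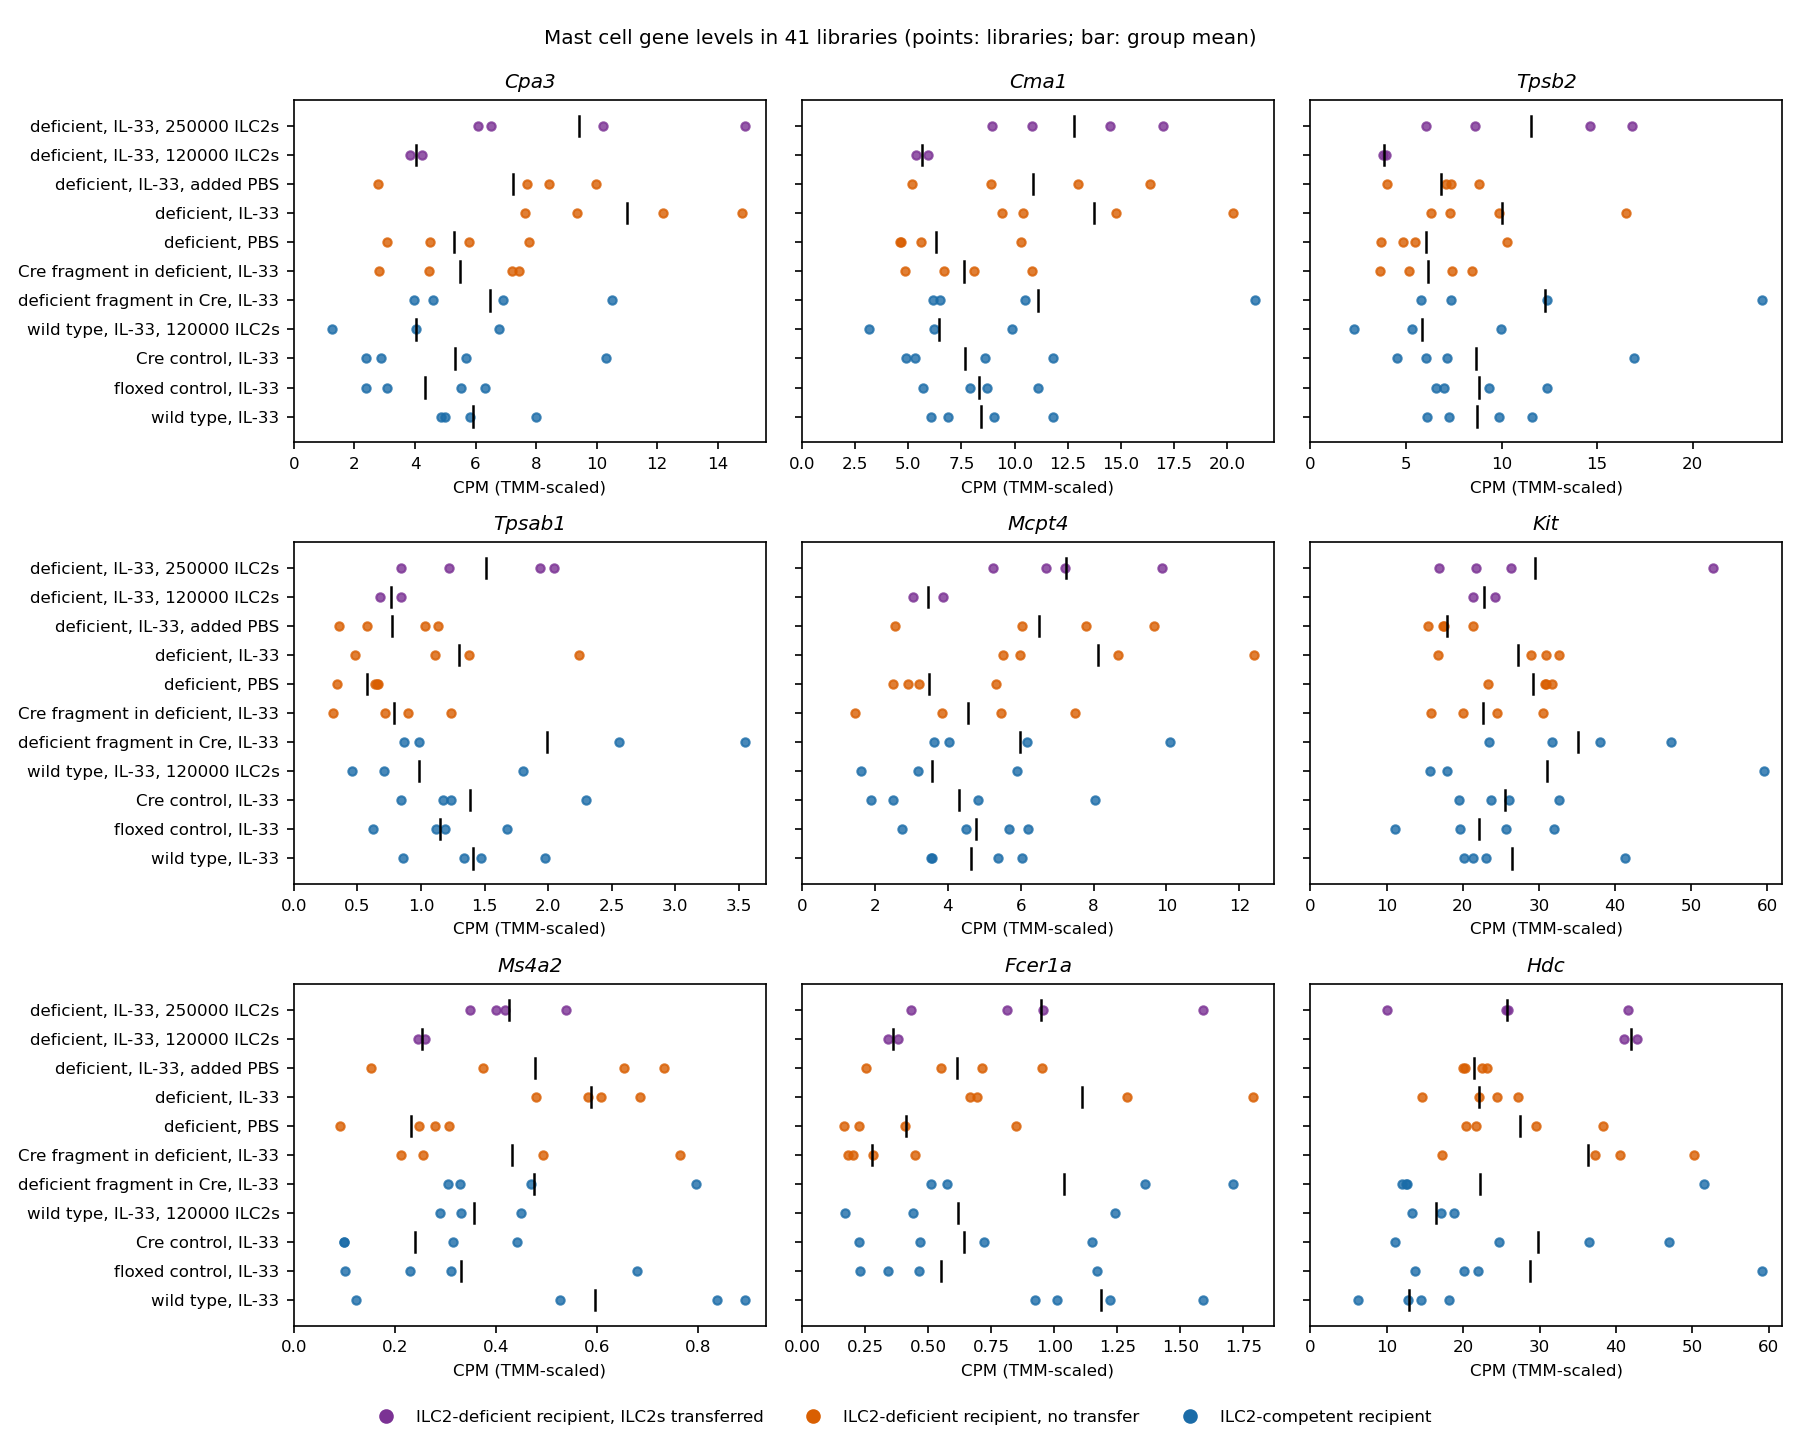
CPM of the 9 genes (x axes) in each library (points, n = 41), by group from top to bottom, with the group mean as a bar; colours give the recipient. Cpa3 averaged 11 CPM in deficient lesions given IL-33, and group ranges overlap widely for each gene.

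Ordered by group mean, Cpa3 was highest in deficient lesions given IL-33 (11 ± 3.14 CPM, SD), then with 250000 ILC2s (9.4 ± 4.08) and with added PBS (7.22 ± 3.11). It was followed by deficient fragments in Cre recipients (6.48 ± 2.93), wild type (5.92 ± 1.46), Cre fragments in deficient recipients (5.48 ± 2.24), Cre controls (5.32 ± 3.65), deficient lesions given PBS (5.27 ± 1.99) and floxed controls (4.32 ± 1.9). The lowest were deficient lesions with 120000 ILC2s (4.03 ± 0.269) and wild type with 120000 ILC2s (4.02 ± 2.76). None of the 10 pairs of neighbours in this order lay further apart than the larger of their SDs, and the same was true of Cma1, Tpsb2, Mcpt4, Kit, Ms4a2 and Fcer1a. One pair each exceeded that spread for Tpsab1 (deficient with 120000 ILC2s, 0.761 ± 0.112 CPM, and deficient given PBS, 0.573 ± 0.156) and for Hdc (deficient with added PBS, 21.5 ± 1.51 CPM, and wild type with 120000 ILC2s, 16.4 ± 2.85).

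Deficient lesions given IL-33 alone averaged more Cpa3 transcript than the 3 competent genotypes given IL-33. Their libraries had 14.8, 12.2, 7.63 and 9.36 CPM, against a lowest of 2.37, a median of 5.26 and a highest of 10.3 CPM in the 12 competent libraries. Replicates 1 and 2 of the deficient group lay above all competent libraries, and the others fell within their range. In the other deficient group given IL-33, that with added PBS, Cpa3 was 2.78 to 9.97 CPM, within the competent range. For IL-33 alone against the competent genotypes the log2 fold change of Cpa3 was 1.09 ± 0.36 (SE; edgeR's quasi-likelihood test, adjusted p = 0.0469). That call was lost in 14 of 24 alternative fits, among them the fit without the 4 liver-rich libraries (1.03 ± 0.38, adjusted p = 0.0867) and the fit without deficient replicate 1 (0.92 ± 0.41, adjusted p = 0.157). It was the single call among the 9 genes, where 11% of all genes passed in either direction and 6.24% as higher, so that 1 of 9 is close to the background.

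The chymase genes had estimates above 0 that did not pass. Cma1 had 20.3, 14.8, 9.42 and 10.4 CPM in deficient lesions, against 4.89 to 11.8 CPM (median 8.25) in the 12 competent libraries, a log2 fold change of 0.76 ± 0.31 (adjusted p = 0.117). Mcpt4 had 12.4, 8.67, 5.5 and 5.97 CPM in deficient lesions, against 1.9 to 8.04 CPM (median 4.67) in competent ones, at 0.83 ± 0.36 (adjusted p = 0.137). Both genes exceeded every competent library in 2 of 4 deficient libraries. Cpa3, Cma1 and Mcpt4 were the 3 members at an unadjusted p under 0.05, a level that 25.7% of all genes reached, and without deficient replicate 1 the count was 1. Limma with quality weights called 4 members higher (Cpa3, Cma1, Mcpt4 and Ms4a2), and DESeq2 called 1. In this contrast limma called 3932 and DESeq2 3007 of all 21249 genes, in either direction.

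The tryptase genes had smaller estimates. Tpsab1 had 2.24, 1.38, 0.48 and 1.11 CPM in deficient lesions, against 0.623 to 2.3 CPM (median 1.21) in competent ones, and its log2 fold change was -0.01 ± 0.4. Tpsb2 was at 0.2 ± 0.37 (95% interval -0.53 to 0.92), Kit at 0.15 ± 0.29 (-0.42 to 0.71) and Hdc at -0.01 ± 0.39 (-0.77 to 0.74). The receptor chains had 0.71 ± 0.43 (Ms4a2) and 0.57 ± 0.46 (Fcer1a). Over the 9 genes the median log2 fold change was 0.57, beside -0.01 over all genes.

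**Figure D2:**
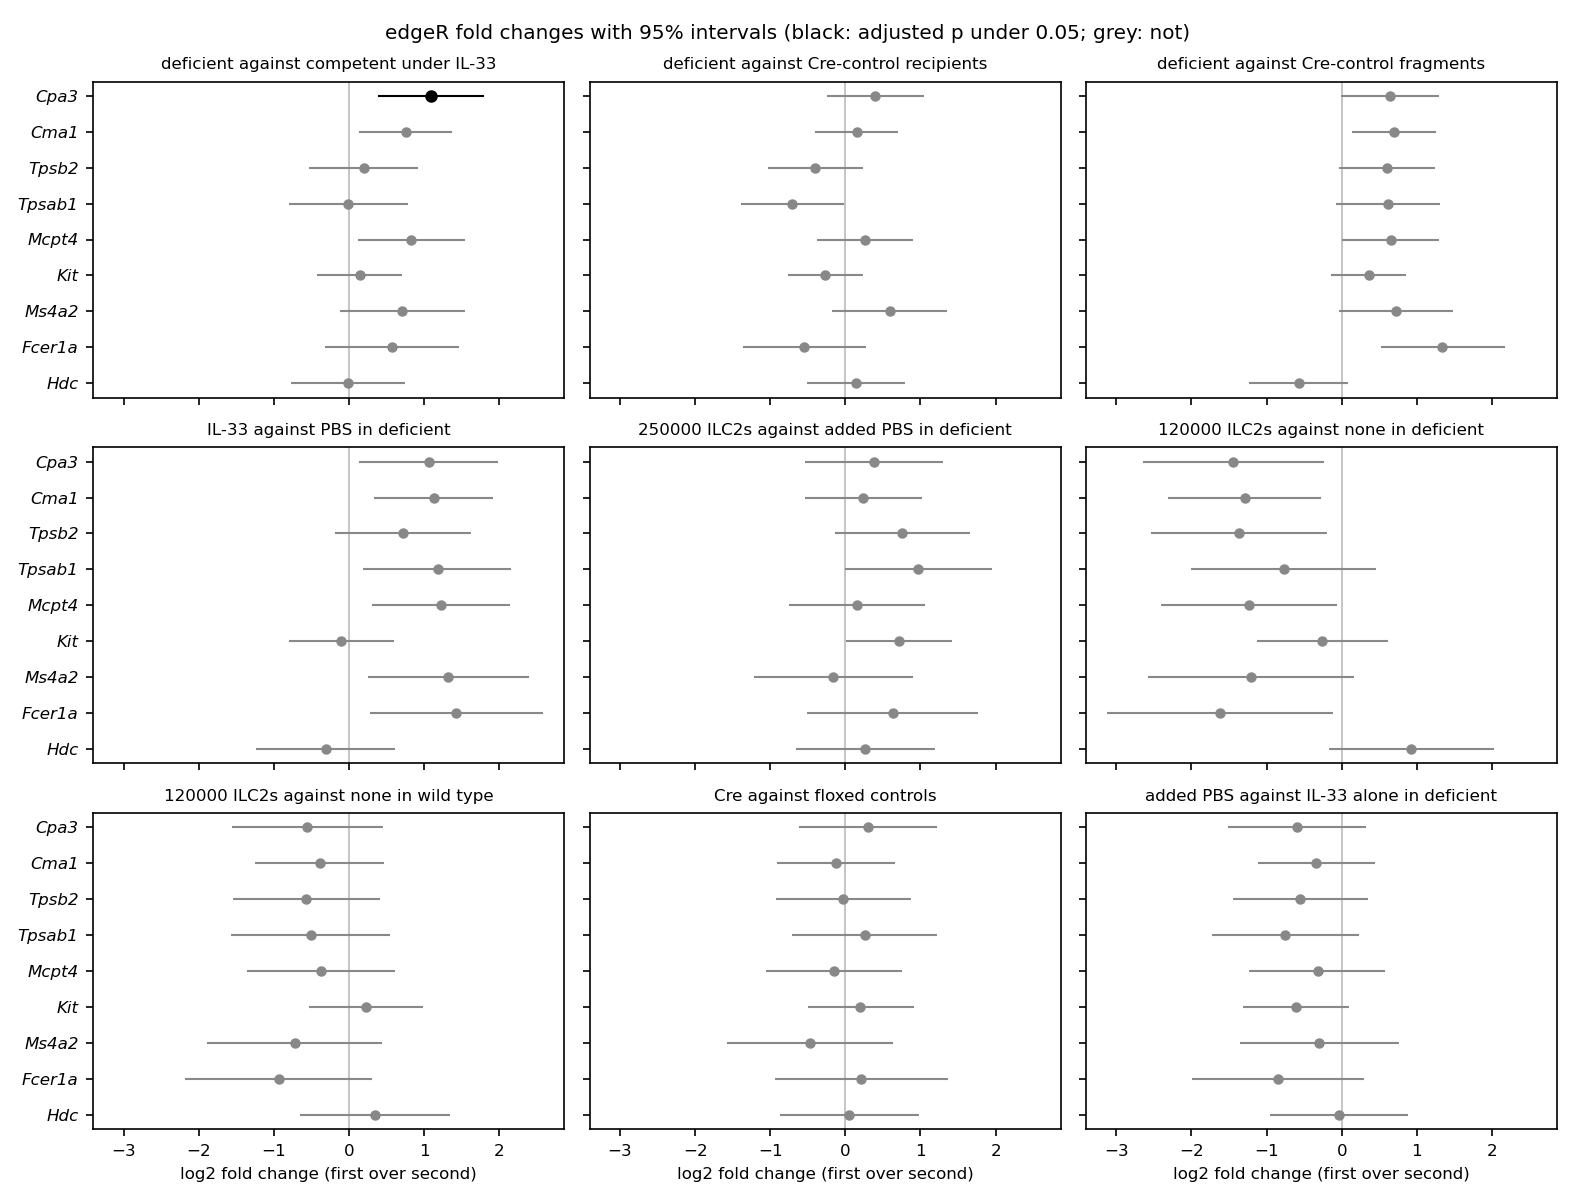
Log2 fold changes of the 9 genes (x axes; first group over second) with 95% intervals in 9 comparisons, from 1 edgeR fit over 41 libraries. The single black point, Cpa3 at 1.09 in deficient against competent lesions, passed an adjusted p of 0.05.

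The exchange of fragments varies the genotype of the host and that of the tissue. Each exchanged group has library numbers of its own, and the host genotype of lesions that were not exchanged is assumed. Deficient recipients (8 libraries, fragments of both genotypes) against Cre-control recipients (8) gave 0 of 9 members past the adjusted threshold with edgeR, DESeq2 and limma, and 0 at an unadjusted p under 0.05, where 11.3 and 25.4% of all genes passed. Cpa3 differed by 0.4 ± 0.33 on the log2 scale, Cma1 by 0.15 ± 0.28 and Mcpt4 by 0.26 ± 0.33. Tpsb2 was at -0.4 ± 0.32 and Tpsab1 at -0.71 ± 0.35 (adjusted p = 0.201), so the tryptase and Cpa3 estimates had opposite signs. The comparisons of deficient lesions with competent genotypes and of recipients share the deficient and Cre-control libraries given IL-33.

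By the genotype of the fragment, deficient fragments (8) against Cre-control fragments (8), 8 of 9 members had estimates above 0, with a median of 0.64 beside -0.02 over all genes. None passed the adjusted threshold with any of the 3 tools, where 0.00471% of all genes passed with edgeR, and Fcer1a and Cma1 were below an unadjusted p of 0.05, as were 3.92% of all genes. Fcer1a had 1.79, 1.29, 0.667 and 0.695 CPM in deficient fragments of deficient recipients and 0.574, 1.36, 0.51 and 1.71 CPM in those of Cre recipients. Cre fragments had 0.281, 0.202, 0.183 and 0.448 CPM in deficient recipients and 1.15, 0.469, 0.224 and 0.721 CPM in Cre recipients. By group mean Fcer1a was lowest of the 11 groups in Cre fragments of deficient recipients, at 6 to 17 counts, and its 2 sets of 8 overlapped. Its log2 fold change was 1.34 ± 0.42 (unadjusted p = 0.00317, adjusted p = 1.0). Cma1 was at 0.7 ± 0.28 (adjusted p = 1.0). Leaving out the Cre control replicate 1 gave 7 members at an unadjusted p under 0.05 in place of 2, and leaving out deficient replicate 1 gave 1.

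Whether the effect of the recipient depended on the fragment was tested as an interaction. The same contrast sets lesions that were not exchanged against exchanged ones, so these readings cannot be told apart. No member passed with edgeR, DESeq2 or limma, and none reached an unadjusted p under 0.05, where 0.414 and 13.9% of all genes did with edgeR. The largest estimate was that of Fcer1a, 1.28 ± 0.83 on the log2 scale (95% interval -0.35 to 2.92).

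IL-33 against PBS in deficient lesions was compared next, and 7 of the 9 estimates were above 0. Mcpt4 had 12.4, 8.67, 5.5 and 5.97 CPM with IL-33, against 3.22, 2.48, 5.31 and 2.91 CPM with PBS. Ms4a2 had 0.686, 0.582, 0.48 and 0.608 CPM with IL-33, against 0.28, 0.0903, 0.308 and 0.248 CPM with PBS. These were the 2 members in which the groups did not overlap, a separation that 2.04% of all genes showed in that direction. In the other deficient group given IL-33, that with added PBS, Mcpt4 was 2.55 to 9.65 CPM and Ms4a2 0.152 to 0.733 CPM. Both of these ranges overlapped those with PBS alone.

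Cpa3 had 14.8, 12.2, 7.63 and 9.36 CPM with IL-33, against 5.77, 3.07, 7.76 and 4.49 CPM with PBS. Cma1 had 20.3, 14.8, 9.42 and 10.4 CPM with IL-33, against 4.62, 4.63, 10.3 and 5.61 CPM with PBS. In both genes PBS replicate 3 overlapped the lowest IL-33 library. Fcer1a had 1.79, 1.29, 0.667 and 0.695 CPM with IL-33, against 0.407, 0.226, 0.847 and 0.166 CPM with PBS, and the same PBS replicate overlapped.

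The log2 fold changes were 1.06 ± 0.47 for Cpa3, 1.13 ± 0.4 for Cma1, 1.22 ± 0.47 for Mcpt4, 1.18 ± 0.5 for Tpsab1, 1.32 ± 0.55 for Ms4a2 and 1.43 ± 0.59 for Fcer1a. Tpsb2 was at 0.72 ± 0.46, Kit at -0.1 ± 0.36 and Hdc at -0.31 ± 0.47. Adjusted p-values from edgeR were 0.62 to 0.992, so none of the 9 passed, where 0.00941% of all genes did (2 genes with edgeR, 18 with DESeq2, 23 with limma). The first 6 of these genes were below an unadjusted p of 0.05, all higher, a level reached by 6.76% of all genes in either direction and by 5.31% as higher. These 6 genes rise and fall together from library to library, so they are not 6 independent results. DESeq2 called none and limma called Fcer1a (2.28, adjusted p = 0.0472). The median of the 9 was 1.13, beside 0.02 over all genes. Without IL-33 replicate 1, the highest library of that group for 8 of the 9 genes, the count at an unadjusted p under 0.05 was 2. No PBS-treated competent lesions are among the groups, so a response to IL-33 in mice with ILC2s was not analysed here.

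The deficient lesions given IL-33 also serve as the control of the transfer of 120000 ILC2s, and they hold the highest Cpa3, Cma1 and Mcpt4 means of the 11 groups. With 120000 ILC2s the 2 libraries had 4.22 and 3.84 CPM of Cpa3, against 14.8, 12.2, 7.63 and 9.36 CPM without transfer. Fcer1a had 0.341 and 0.38 CPM with transfer, against 1.79, 1.29, 0.667 and 0.695 CPM without. Hdc had 42.8 and 41.1 CPM with transfer, against 24.4, 14.6, 22.1 and 27.2 CPM without. The groups did not overlap in 6 members that were lower (Cpa3, Cma1, Tpsb2, Mcpt4, Ms4a2 and Fcer1a), as in 2.92% of all genes, and in 1 that was higher (Hdc), as in 3.44%.

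None of these differences passed the test, and no gene of the table did with edgeR (0.0%). DESeq2 called 9 genes and limma called 0, none of them a member. At an unadjusted p under 0.05 stood 5 members, all lower (Cpa3, Cma1, Tpsb2, Mcpt4 and Fcer1a), where 1.88% of all genes did in either direction and 0.706% as lower. The members counted here and by overlap rise and fall together between libraries, so they are not independent results. Cpa3 was at -1.45 ± 0.61, Fcer1a at -1.62 ± 0.77 and Hdc at 0.92 ± 0.56, each with an adjusted p of 1.0. Without replicate 1 of the transfer group the count of 5 was 0, with the lone library left assumed to vary like the other groups. A list of 7 neutrophil genes summed to 118 and 279 CPM in these 2 libraries, against 51.9 to 110 CPM in the 4 without transfer, and its part in the Hdc difference was not tested.

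In wild-type mice, 120000 ILC2s against none gave Cpa3 values of 4.03, 6.78 and 1.26 CPM with transfer, against 5.82, 4.87, 4.99 and 8.01 CPM without. The difference was -0.56 ± 0.51 on the log2 scale, and the median over the 9 genes was -0.51, beside 0.05 over all genes. No member and no gene passed with edgeR (0.0%), no member was below an unadjusted p of 0.05, where 3.96% of genes were (3 members without replicate 2 of the transfer group), and DESeq2 called 3 genes and limma 0. The interaction of transfer with genotype gave no member past either threshold, against 0.0% of all genes adjusted and 3.23% unadjusted, and its estimates ran from -0.89 to 0.58.

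The larger transfer of 250000 ILC2s into deficient mice was set against added PBS. Tpsab1 had 1.22, 2.05, 1.94 and 0.839 CPM with ILC2s, against 1.13, 0.577, 1.03 and 0.354 CPM with PBS, a log2 fold change of 0.97 ± 0.5 (adjusted p = 0.577). In 3 of 4 libraries with ILC2s it exceeded every library with PBS. Tpsb2 was at 0.76 ± 0.46 and Cpa3 at 0.38 ± 0.47. Kit had 52.9, 26.3, 16.9 and 21.7 CPM with ILC2s, against 17.4, 15.4, 21.3 and 17.6 CPM with PBS, at 0.72 ± 0.36 (adjusted p = 0.574), and limma called it (1.11, adjusted p = 0.0404). Kit replicate 1 carried the edgeR estimate, which was 0.27 without it. In this contrast limma called 1093 and DESeq2 14 of all 21249 genes. No member passed with edgeR or DESeq2 and none was below an unadjusted p of 0.05, where 0.0 and 8.7% of all genes were. Without replicate 4 of the ILC2 group 2 members were below it.

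The 2 control contrasts showed no member past the adjusted or the unadjusted threshold. For Cre against floxed controls 0.329% of all genes passed the adjusted and 14.5% the unadjusted threshold, and the members' estimates ran from -0.47 to 0.3. For added PBS against IL-33 alone in deficient lesions these shares were 0.0141 and 16.4%. All 9 members had estimates below 0 there, from -0.85 (Fcer1a) to -0.04 (Hdc), with a median of -0.55. DESeq2 and limma called 0 members in both contrasts. The Cpa3 means of the 2 deficient IL-33 groups were apart by more than either SD (7.22 ± 3.11 CPM with added PBS, 11 ± 3.14 CPM without).

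The members fell into 3 patterns from library to library, a split made after their values were seen. The 5 proteases with Fcer1a and Ms4a2 (7 genes) correlated with each other over the 41 libraries, with Pearson's r of log2 CPM from 0.51 to 0.95 (median 0.74) and Spearman's rho from 0.57 to 0.95 over their 21 pairs. Permutation p-values were 1e-05, the smallest that 100000 permutations can give, to 0.00062 for r and to 0.00014 for rho, and those of r were at most 0.0011 after Benjamini-Hochberg adjustment over all 36 pairs. Without the 2 libraries farthest from the median of the first gene r was 0.46 to 0.95, and after removing group means 0.55 to 0.94. Cma1 and Mcpt4, the neighbouring chymase genes, had r = 0.95 and rho = 0.95, and Cpa3 and Mcpt4 r = 0.92 and rho = 0.92 (permutation p = 1e-05 each). The weakest protease pair was Cpa3 with Tpsab1 at r = 0.61 and rho = 0.58 (permutation p = 2e-05 and 0.00014), which was 0.8 after removing group means.

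Kit followed these genes less closely. Its r with the 7 was 0.03 (Ms4a2) to 0.41 (Fcer1a), with rho from 0.02 to 0.42 and permutation p-values of 0.0078 to 0.85 for r (0.013 to 0.85 adjusted) and 0.0076 to 0.88 for rho. Hdc had negative r with each of the other 8 genes, -0.4 (Fcer1a) to -0.09 (Kit), with rho from -0.37 to -0.07 and permutation p-values of 0.0089 to 0.59 for r (0.014 to 0.61 adjusted) and 0.018 to 0.66 for rho. After removing group means the values for Hdc were -0.21 to -0.01. With the list of 16 other mast cell genes, which is described last, Kit had r = 0.45 and rho = 0.48 and Hdc r = -0.3 and rho = -0.31, while the 7 genes had r from 0.49 (Ms4a2) to 0.71 (Fcer1a), given as descriptions.

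**Figure D3:**
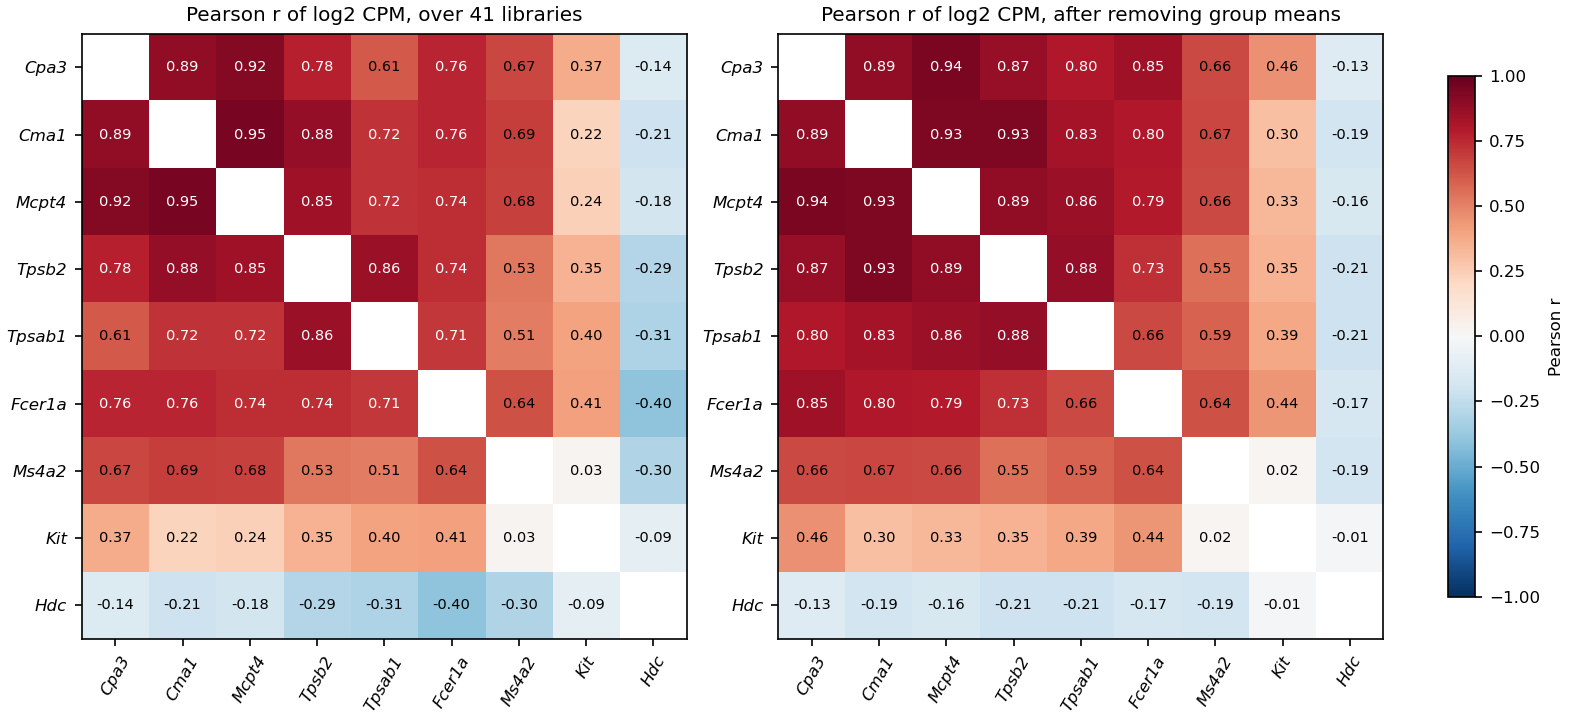
Pearson's r of log2 CPM between each pair of the 9 genes over 41 libraries (left) and after removing group means (right), coloured from -1 to 1. The 7 protease and IgE receptor genes form a block at 0.51 to 0.95, while Kit and Hdc stay outside it.

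All other genes were ranked by the likeness of their levels to the mean of the 9 members. Mrgprb2, the mast cell receptor for basic secretagogues, led with r = 0.8 over 41 libraries, followed by its relatives Mrgprb1 (0.69) and Mrgprx2 (0.62), the serotonin-synthesis enzyme gene Tph1 (0.69) and Slc18a2 (0.63), which encodes the vesicular monoamine transporter. Pbx3, Adam12, P3h4, Nt5dc2 and Ccn4 completed the first 10, at 0.57 to 0.62. With group means removed, Mrgprb2 (0.79), Tph1 (0.79), Mrgprx2 (0.74) and Mrgprb1 (0.71) held the first 4 places, and Itga5, Pbx3, Acsbg3, Kcnt1, Gm49478 and Col4a1 followed at 0.65 to 0.69. A list of 7 stromal genes had r = 0.49 and rho = 0.42 with the mean of the 7 protease and IgE receptor genes (r = 0.58 with group means removed), given as a description, and its part in these likenesses was not tested. Receptors of the Mrgprb family are near relatives, so that reads may be divided among them.

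For Kit and Hdc the same ranking was made after their separate behaviour was seen. Kit most resembled Scg5 (r = 0.88), Cbln2 (0.84), Prph (0.83), Fstl5 (0.83) and Elavl4 (0.82), of which Prph and Elavl4 are known as neuronal genes. Kit is also known to mark interstitial cells of Cajal, the pacemaker cells of smooth muscle. A list of 4 genes of those cells (Ano1, Etv1, Gja1 and Hcn4) had r = 0.65 and rho = 0.62 with Kit over 41 libraries, and r = 0.36 and rho = 0.28 with the mean of the 7 protease and IgE receptor genes, given as descriptions. Hdc most resembled Acod1 (0.68), Lpar3 (0.65), Ifitm1 (0.64), Arg2 (0.62) and Cemip (0.61). A list of 7 neutrophil genes had r = 0.37 and rho = 0.28 with Hdc, and a list of 8 epithelial genes r = 0.33 and rho = 0.32, against -0.02 and -0.23 for r with the 7 genes.

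The proportion of tryptase to Cpa3 transcripts differed with the recipient, more clearly than with other proteases as the denominator. Cpa3 was also the only member called by edgeR, and how many other pairs of genes separate as well was not determined. The ratio of tryptase counts (Tpsb2 plus Tpsab1) to Cpa3 counts within a library does not depend on library scaling, and it was chosen after the values were seen, so it is given without a test. In deficient lesions given IL-33 it was 1.27, 0.924, 0.888 and 0.9. In the competent genotypes given IL-33 it was 1.85, 2.27, 2.51 and 1.48 in Cre controls, 2.66, 3.02, 1.66 and 2.54 in floxed controls and 2.03, 1.52, 1.63 and 1.63 in wild type. The deficient and competent libraries did not overlap, and the difference of group means was -1.03 on the log2 scale, with a pooled SD within groups of 0.3.

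In the exchanged lesions the ratio went with the recipient. Cre fragments in deficient recipients had 1.31, 1.11, 1.4 and 1.34, and deficient fragments in Cre recipients had 1.82, 2.17, 1.67 and 2.6. Together with the lesions that were not exchanged, all 8 libraries of deficient recipients lay below all 8 of Cre recipients, with a difference of means of -0.84 on the log2 scale and a pooled SD of 0.26. Within deficient recipients the mean log2 ratio was 0.37 ± 0.15 (SD) with Cre fragments and -0.02 ± 0.24 with deficient fragments. Within Cre recipients it was 0.99 ± 0.34 with Cre fragments and 1.03 ± 0.28 with deficient fragments. A part of the fragment genotype in the ratio was not tested. The sets of 8 overlapped with Cma1 or Mcpt4 as the denominator, and with Tpsb2 alone over Cpa3. Cre-control and deficient libraries that were not exchanged have interleaved library numbers. Among them the tryptase to Cpa3 ratio was 0.888 to 1.27 in deficient and 1.48 to 2.51 in Cre-control libraries. Each exchanged group has library numbers apart from these and from the other exchanged group. Recipient and library number cannot be told apart there.

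Deficient lesions given PBS had 0.945, 1.31, 1.41 and 1.36, and those given IL-33 with added PBS had 1.0, 0.938, 1.05 and 1.56. Over all 16 libraries of deficient recipients without ILC2 transfer the ratio averaged 1.17 ± 0.223 (SD), against 2.02 ± 0.466 in the 19 libraries of competent recipients. In deficient recipients 15 of 16 lay below every competent library. Tpsab1 alone over Cpa3 was 0.0629 to 0.172 in the 16 and 0.173 to 0.405 in the 19, with no overlap but with neighbouring values at the boundary. Tpsb2 alone over Cpa3 was 0.782 to 1.44 and 1.25 to 2.76, and 13 of 16 lay below all competent libraries.

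The separation depended on the protease used as the denominator. Tryptase over Cma1 was 0.609 to 1.18 in deficient recipients and 0.863 to 1.62 in competent ones, and tryptase over Mcpt4 was 1.01 to 2.69 and 1.69 to 2.91, so both overlapped, although the 4 deficient libraries given IL-33 alone lay apart from the 12 of the competent genotypes with each of these denominators. Cpa3 over Cma1 was 0.537 to 1.25 and 0.389 to 0.877. The chymase pair kept its proportion, with Mcpt4 over Cma1 at 0.577 ± 0.097 in the 16 and 0.552 ± 0.078 in the 19.

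**Figure D4:**
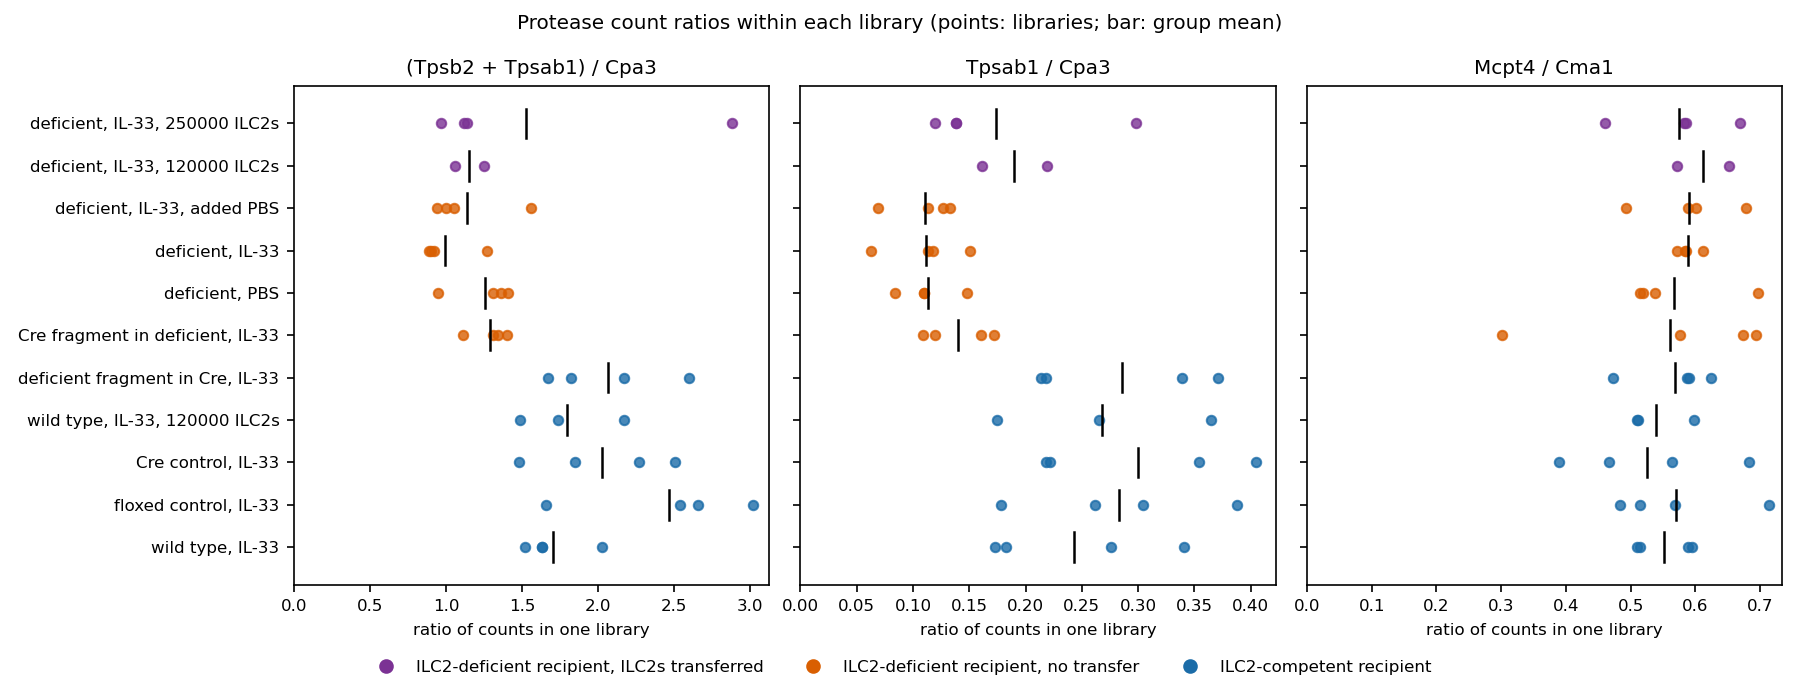
Ratios of counts within each library (x axes) by group from top to bottom: both tryptases over Cpa3, Tpsab1 over Cpa3, and Mcpt4 over Cma1; points are libraries, bars group means, colours the recipient. Deficient recipients without transfer sit at 0.888 to 1.56 in the left panel and competent recipients at 1.48 to 3.02, whereas Mcpt4 over Cma1 averages 0.525 to 0.611 in all 11 groups.

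After transfer of ILC2s the ratio lay below every competent library in 5 of 6 deficient recipients. It was 0.966, 1.12, 2.88 and 1.14 with 250000 ILC2s and 1.06 and 1.25 with 120000 ILC2s. Replicate 3 of the larger transfer lay within the competent range, as did its Tpsab1 to Cpa3 ratio of 0.298 and that of replicate 2 with 120000 ILC2s (0.219). The other Tpsab1 to Cpa3 ratios after transfer were 0.12 to 0.161. Replicate 3 of the larger transfer also held 0.484 CPM of the ILC2 cytokine gene Il13, against 0.0955, 0.0414 and 0.14 CPM in the other 3 libraries of its group. Its Chil3 level, a macrophage gene induced by type 2 cytokines, was 1191 CPM, against 129.0, 80.1 and 27.2 CPM. On the log2 CPM scale Il13 was -4.43 to -1.75 in deficient recipients without transfer and -1.04 to 1.85 in competent recipients, so the libraries form separate clusters and no pooled correlation is given.

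**Figure D5:**
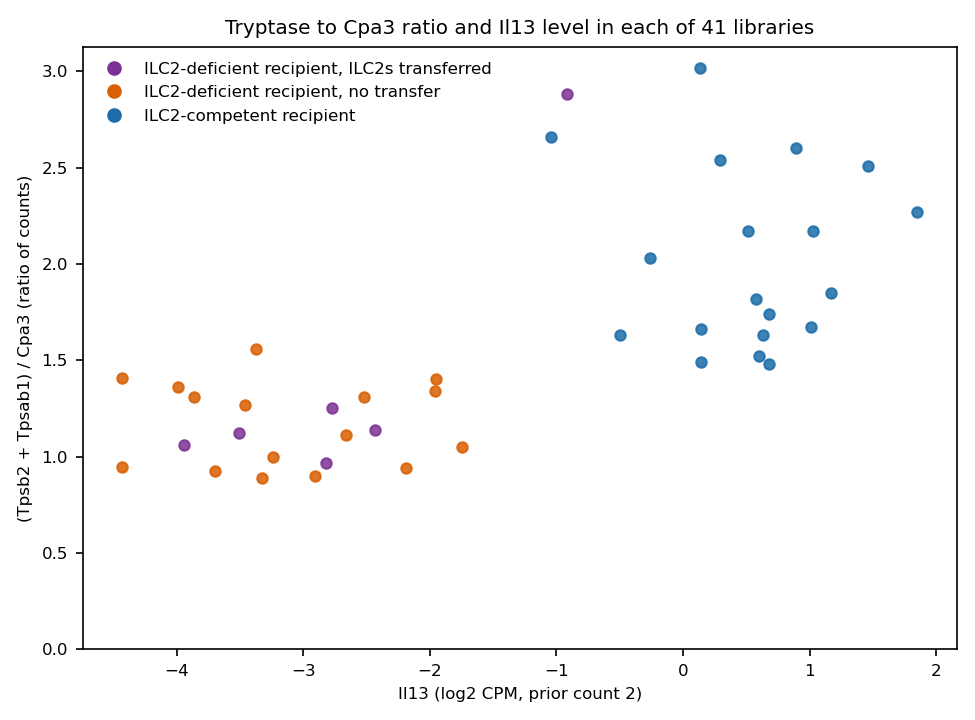
Ratio of tryptase to Cpa3 counts (y axis) against the Il13 level (x axis, log2 CPM with a prior count of 2) in each of 41 libraries, coloured by recipient. Competent recipients lie at the upper right, deficient recipients without transfer at the lower left, and 1 library with 250000 ILC2s, at a ratio of 2.88, lies among the competent ones.

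Other genes of the mast cell pathways are given from lists of their known members. Of all genes 6.24% passed as higher and 4.72% as lower in deficient against competent lesions, with a median of -0.01. By recipient 5.02% passed as higher and 6.29% as lower, with a median of 0.01. Counts of 1 or 2 in a list of 12 to 16 genes are therefore near the background. Of 16 measured genes of mast cell granules, mediators and receptors, 1 passed as higher and 1 as lower in deficient against competent lesions, with a median of -0.03, and by recipient 0 and 3 (median -0.37). Rab27b, a GTPase of granule release, was higher by 1.15 ± 0.23 on the log2 scale (adjusted p = 0.00171). It stayed past the threshold in all 16 fits that left out 1 library, but narrowly without deficient replicate 4 (0.84, adjusted p = 0.0483). That library had the highest epithelial share of all 41 (0.182%), whose part in this result was not tested. Ltc4s, the leukotriene C4 synthase gene, fell by 1.14 ± 0.34 (adjusted p = 0.0255), a call lost in 2 of those 16 fits, at worst without deficient replicate 2 (adjusted p = 0.113). By recipient Ltc4s was lower by 1.32 ± 0.28 (log2 fold change -1.32, adjusted p = 0.00203) and Srgn, the proteoglycan core of granules, had -1.17 ± 0.24 (adjusted p = 0.00152), both kept in all 16 such fits. Both genes are also expressed in macrophages and other leukocytes. Of 7 macrophage genes, 2 passed as lower by recipient, Mrc1 at -1.14 ± 0.24 and Mertk at -0.53 ± 0.16 (adjusted p = 0.00182 and 0.0254), and the list's summed level was 993 to 1680 CPM in deficient recipients and 1430 to 3270 CPM in Cre recipients. The part of macrophages in the lower values by recipient was not tested. Cd63 had -0.46 ± 0.14 (adjusted p = 0.0253), lost in 5 of those fits, at worst without deficient fragment in Cre recipient replicate 2 (adjusted p = 0.0711). Srgn differed between Cre and floxed controls too, at 1.52 ± 0.34 (adjusted p = 0.0315), called in 3 of 8 fits without 1 library.

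Of 16 genes that carry the IgE receptor signal, none passed in deficient against competent lesions. Among them 3 had an unadjusted p under 0.05, where 25.7% of all genes did. DESeq2 called 0 and limma 2 of the 16, where limma called 3932 of all 21249 genes. By recipient 3 of the 16 were lower, with a median of -0.3, where 6.29% of all genes were. These were Syk, the kinase recruited to the receptor (-0.59 ± 0.19, adjusted p = 0.039), Fyn (-0.36 ± 0.12, adjusted p = 0.0469) and the inhibitory receptor gene Fcgr2b (-0.76 ± 0.23, adjusted p = 0.0254). With 1 library left out, Syk was called in 9, Fyn in 4 and Fcgr2b in 10 of 16 fits. Macrophages also express Syk and Fcgr2b. Without deficient fragment in Cre recipient replicate 2 the adjusted p was 0.115 for Syk and 0.086 for Fcgr2b, and without deficient replicate 4 it was 0.123 for Fyn. The shared signalling chain gene Fcer1g, which macrophages also express, had -0.15 ± 0.22 in deficient against competent lesions, with 79.6 ± 21.4 CPM in the deficient group and group means of 73.5 to 106 CPM in the competent genotypes.

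Among 13 measured genes of mast cell growth and lineage, 3 passed as lower in deficient against competent lesions (median -0.27, where 4.72% of all genes passed as lower) and 4 by recipient (median -0.06, where 6.29% did). Il9r, the IL-9 receptor gene, was at -1.74 ± 0.31 (adjusted p = 0.000632) and by recipient at -1.27 ± 0.24 (adjusted p = 0.000886). The shared beta chain genes Csf2rb and Csf2rb2, near-identical copies whose reads may be divided, were at -0.78 ± 0.24 and -0.9 ± 0.24 (adjusted p = 0.0336 and 0.0132), calls kept in 12 and 14 of 16 fits and lost at worst without deficient replicate 2 (Csf2rb, adjusted p = 0.142) and replicate 4 (Csf2rb2, adjusted p = 0.0799). By recipient Tgfb1 had -0.58 ± 0.15 (adjusted p = 0.0106), Csf2rb -0.8 ± 0.2 (adjusted p = 0.00817) and Csf2rb2 -0.86 ± 0.2 (adjusted p = 0.00417), each kept in all 16 fits without 1 library. A list of 5 measured eosinophil genes summed to 7.45 to 10.7 CPM in deficient lesions given IL-33, against 21.8 to 80.1 CPM in the competent genotypes. The ILC2 genes Il5, Il13, Gata3 and Il1rl1 were lower there too, as given above. The part of eosinophils and ILC2s in the lower values of these genes, of Ltc4s above and of Cysltr2 and Il3ra below was not tested. Kitl, the gene of the Kit ligand, had 49.5 ± 8.14 CPM in deficient lesions and group means of 44.4 to 56.3 CPM in the competent genotypes, with a log2 fold change of 0.02 ± 0.2.

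Of 12 measured receptors and enzymes that meet mast cell mediators, 1 passed in each direction in both comparisons, with medians of 0.14 and 0.2, where 11% and 11.3% of all genes passed in either direction. F2rl1, the receptor that tryptase is known to cleave, was at 1.01 ± 0.27 in deficient against competent lesions (adjusted p = 0.0127) and 0.76 ± 0.24 by recipient (adjusted p = 0.0414). Those calls held in 15 and 9 of 16 fits without 1 library, and without deficient replicate 4 the estimates were 0.57 and 0.54 (adjusted p = 0.272 and 0.146). That library had the highest share of epithelial genes of all 41 (0.182%), whose part in this result was not tested. Cysltr2, a receptor of cysteinyl leukotrienes, was at -1.23 ± 0.4 (adjusted p = 0.0452) and -1.17 ± 0.33 (adjusted p = 0.0178), the first called in 4 of 16 fits and lost at worst without deficient replicate 2 (adjusted p = 0.145), and the second called in all 16 but in 6 of 8 other alternatives (adjusted p up to 0.107). The histamine H2 receptor gene Hrh2 passed in the interaction of recipient and fragment (-2.69 ± 0.63, adjusted p = 0.0457), which was lost in 10 of 16 fits, at worst without deficient fragment in Cre recipient replicate 1 (adjusted p = 0.224). Hnmt, whose product breaks down histamine, had 0.43 ± 0.25 (adjusted p = 0.292).

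Basophils share Fcer1a and Ms4a2 with mast cells. Of 5 measured basophil genes, Itga2 (1.48 ± 0.38, adjusted p = 0.0101) and Cd200r3 (1.4 ± 0.45, adjusted p = 0.0418) passed as higher and Il3ra (-0.57 ± 0.17, adjusted p = 0.0293) as lower in deficient against competent lesions, with a list median of 0.44, where 11% of all genes passed. Without deficient replicate 4 Itga2 was at 0.77 (adjusted p = 0.305) and Cd200r3 at 0.0 (adjusted p = 1.0), and Cd200r3 was called in 7 of 16 such fits. The same library had the epithelial share of 0.182% given above. Il3ra was lost in 2 of 16 such fits, at worst without deficient replicate 2 (adjusted p = 0.143). By recipient Itga2 had 1.34 ± 0.36 (adjusted p = 0.0131, but 0.0588 without deficient replicate 4) and Il3ra -0.62 ± 0.14 (adjusted p = 0.00515). The summed level of the 5 genes was 44.8 to 129 CPM in deficient lesions and 28.7 to 74.4 CPM in the competent genotypes. In the lists of granule and mediator genes, growth and lineage genes, mediator receptors and basophil genes, Cma2, Mcpt1, Mcpt9, Tpsg1, Il3, Il9, Gata1, Hrh3, Hrh4 and Mcpt8 were not analysed here. By edgeR the 62 measured genes of the 5 lists had 0 calls for IL-33 against PBS. At an unadjusted p under 0.05 were 7 of the 62, as were 6.76% of all genes. DESeq2 called 2 of the 62 and limma 1, where they called 18 and 23 of all 21249 genes.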

How the data were processed

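The labels' protocols describe total RNA from snap-frozen lesions (Norgen kit) and NEBNext UltraExpress libraries. The values are raw counts per gene as deposited by the authors. Per the submitters' processing notes, Trimmomatic, STAR, HTSeq, edgeR and limma were used with GRCm38, and versions and strand setting are not given in the sources used here, so antisense overlaps cannot be separated. The lowest gene total is 411 counts, and no further filter was applied.

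Groups came from sample titles. Labels do not say whether replicates came from separate animals, and if they did not, the p-values reflect technical spread. No batch is labelled, and library numbers follow the groups, except that they interleave for deficient and Cre-control lesions under IL-33 and for 250000 ILC2s and added PBS. One edgeR 4.0.16 quasi-likelihood fit (TMM, robust) of 11 group means over 41 libraries, in R 4.3.3, gave all contrasts, with Benjamini-Hochberg adjustment over 21249 genes at 0.05. SEs are the log2 fold change over the square root of F. On simulated data the fit was tested first. DESeq2 1.42.0, limma 3.58.1 (voom with quality weights), other scalings, a mean CPM filter of 1, smaller fits, a replicate block and omissions were alternatives. Log2 CPM used a prior count of 2. Equal replicate numbers did not pair libraries (191 pairs, median correlation of deviations -0.01).

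The 9 genes, the lists and the tests were chosen with earlier results of these data known. List genes were named where called, at most 4 per list and comparison by smallest p, besides Kitl, Fcer1g, Hnmt and Slc18a2, and genes of like pattern were the 10 with the highest r.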

Additional observations from a re-analysis of the deposited data

Results flagged for a closer look

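Of 99 sets of 4 libraries (9 genes and 2 ratios in the 9 groups of 4), 7 held a library that lay far from the others of its group by Dixon's test, which chance alone would flag in about 1 in 20. The tryptase to Cpa3 ratio was 2.88 in deficient lesions with 250000 ILC2s replicate 3, against 0.966 to 1.14 in the other 3, and its Tpsab1 to Cpa3 ratio was 0.298, against 0.12 to 0.138. The same library held the highest Il13 (0.484 CPM), Chil3 (1191 CPM) and Col6a5 (1066 CPM) of its group. In deficient lesions given IL-33, replicate 1 had a tryptase to Cpa3 ratio of 1.27, against 0.888 to 0.924 in the others. Kit was 41.3 CPM in wild type replicate 3 under IL-33, against 20.2 to 23.0 CPM, and that library also held the most Scg5 (1.93 CPM) and Prph (5.56 CPM) of its group. In deficient lesions given PBS, replicate 2 was low in Kit (23.3 CPM, against 30.8 to 31.7) and in Tpsab1 (0.339 CPM, against 0.636 to 0.662). Hdc was 51.5 CPM in deficient fragments of Cre recipients replicate 3, against 12.0 to 12.7 CPM in the other 3. The causes were not tested.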

How the results depend on the processing

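Of 210 alternative counts of members called over the 11 comparisons, 193 equalled the reported one and 17 did not. In deficient against competent lesions the count of 1 became 0 with library totals alone, without the liver-rich libraries and with the replicate block, was 4 with limma, and was 0 to 1 when 1 library was left out. Limma called 1 in IL-33 against PBS and 1 with 250000 ILC2s. Cpa3 was past the threshold in 10 of 24 alternatives (log2 fold change 0.92 to 1.35, adjusted p 0.00313 to 0.157), and not with library totals alone (1.2, adjusted p = 0.0523), without the liver-rich libraries (1.03), with the block (1.07, adjusted p = 0.0612) or in 11 of 16 fits without 1 library (0.92 to 1.27 over all 16). Replicate numbers did not pair the libraries, and the block, which changed no other count of members, leaves fewer residual degrees of freedom. The cause of the other changes was not tested.

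The tryptase ratio difference (-1.03 by genotype, -0.84 by recipient on the log2 scale) was -0.6 and -0.56 with Cma1 and -0.72 by genotype with Mcpt4 as the denominator, and -1.22 by recipient with Tpsab1 alone, all chosen after seeing the data; with 1 library left out it was -1.15 to -0.98 by genotype and -0.91 to -0.78 by recipient. The median r among the 7 genes (0.74) was 0.74 with a prior count of 0.5 and 0.71 without the liver-rich libraries.

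Counts of all genes called varied more: from 2329 to between 698 (without deficient replicate 4) and 3932 (limma) by genotype, from 2403 to between 1386 (library totals) and 4187 (limma) by recipient, from 1 to 0 and 13 by fragment, from 2 to 0 and 23 for IL-33, from 0 to 1093 (limma) for 250000 ILC2s, from 0 to 3 and 9 for 120000 ILC2s in wild type and deficient mice, from 70 to 20 and 2192 (limma) between controls, from 3 to 0 and 2216 (limma) for added PBS, from 88 to 0 and 342 (DESeq2) and from 0 to 8 (DESeq2) for the interactions. Counts of 4 to 35 limit Ms4a2.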

Other observations

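Mcpt2, the gene of a protease of mucosal mast cells, was singled out after its values were seen. It had 66, 9, 0 and 61 counts in deficient lesions given IL-33, against 1, 0, 0 and 4 counts in those given PBS. The fitted log2 fold change was 5.03 ± 1.25 (edgeR, unadjusted p = 0.000318, adjusted p = 0.528), and it rests on replicates 1 and 4. In the deficient group with added PBS it had 1, 0, 1 and 0 counts, although that group received IL-33 as well. Cre controls had 90, 12, 25 and 14 counts.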
